A study of Homo sapiens with 10 samples.

Results

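The annexins and S100 proteins, 2 families of calcium-binding proteins, were examined in the RNA sequencing (RNA-seq) of cells overexpressing DAZL, a germ cell RNA-binding protein. Members were chosen by gene symbol alone, every ANXA gene and every S100A, S100B, S100P, S100G and S100Z gene, by a rule that uses no expression values. This gave 34 of the 64940 genes in the table, 13 annexins and 21 S100 genes. The 4 libraries came from H9, a human embryonic stem cell (hESC) line, with 2 control and 2 oeDAZL libraries. The sample labels give the control cells as wt and as spontaneously differentiated "SD cells", and the oeDAZL cells as hPGCLCs, that is, human primordial germ cell-like cells. The series text and the study's methods call both groups PGCLCs, made with BMP4 and BMP8a and infected with a lentivirus carrying DAZL-P2A-GFP or GFP. The labels give no collection time, and whether the RNA-seq cells were sorted for GFP is not given in the sources used here. The effect of DAZL and any difference in culture therefore cannot be told apart. The labels do not say that the 2 libraries of a group came from separate cultures, so P-values measure only the spread between these libraries, which may be technical. Values are TPM, a measure of transcript abundance scaled by transcript length and library total. The read depth is unknown, since TPM does not keep it, and a gene at 0 is only listed at 0. DAZL itself was listed at 0 and 0.0333 TPM in control and 102 and 101 TPM in oeDAZL cells, as the labels say.

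Annexins bind phospholipid membranes when calcium is present and take part in membrane repair, exocytosis and endosome traffic. S100 proteins are small EF-hand proteins that bind a target protein when calcium changes their shape, and many of their targets are annexins. S100A10 is an exception that is held in its active shape without calcium and joins ANXA2 in a complex at the plasma membrane that binds plasminogen activator, while S100A11 joins ANXA1. Most S100 genes lie in a cluster on the long arm of chromosome 1, and members such as S100A7, S100A8 and S100A9 are known from epidermis and myeloid cells.

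The sequences that bear on the results are those upstream of 5 genes, shown because ANXA2 and S100A10 encode the partners of the abundant complex and because ANXA4, S100A3 and ANXA9 were the members that passed the unadjusted threshold below. Each line is the 250 bases before a RefSeq start site (GRCh38.p14, 5′ to 3′ on the gene's strand). Capitals mark letters found on either strand, namely the GC box GGGCGG, the AP-1 site TGANTCA, the TATA box TATAAA and the CCAAT box, which may overlap one another.
ANXA2, chr15:60397987-60398236, minus strand: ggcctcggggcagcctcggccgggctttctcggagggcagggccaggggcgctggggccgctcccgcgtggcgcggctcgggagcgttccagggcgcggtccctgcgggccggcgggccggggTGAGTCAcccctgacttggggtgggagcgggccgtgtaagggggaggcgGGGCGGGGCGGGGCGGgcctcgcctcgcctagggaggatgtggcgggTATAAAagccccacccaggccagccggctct
S100A10, chr1:151993860-151994109, minus strand: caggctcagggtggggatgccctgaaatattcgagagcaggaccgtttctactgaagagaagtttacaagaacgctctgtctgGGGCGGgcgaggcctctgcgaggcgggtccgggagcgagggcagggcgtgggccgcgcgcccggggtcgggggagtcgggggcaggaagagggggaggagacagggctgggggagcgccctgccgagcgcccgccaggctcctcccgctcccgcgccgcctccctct
ANXA4, chr2:69643558-69643807, plus strand, the upstream one of 2 start sites: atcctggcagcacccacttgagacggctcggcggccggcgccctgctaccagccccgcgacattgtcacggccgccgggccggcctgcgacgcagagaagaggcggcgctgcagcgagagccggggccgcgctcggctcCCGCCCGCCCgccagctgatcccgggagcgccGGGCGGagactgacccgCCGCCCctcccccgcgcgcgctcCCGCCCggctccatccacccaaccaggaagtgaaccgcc
S100A3, chr1:153549259-153549508, minus strand: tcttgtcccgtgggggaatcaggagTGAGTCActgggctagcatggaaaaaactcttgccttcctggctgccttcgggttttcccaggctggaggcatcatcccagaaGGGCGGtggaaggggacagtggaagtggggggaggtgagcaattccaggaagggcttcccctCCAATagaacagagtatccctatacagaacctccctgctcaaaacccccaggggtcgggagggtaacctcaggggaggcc
ANXA9, chr1:150982042-150982291, plus strand: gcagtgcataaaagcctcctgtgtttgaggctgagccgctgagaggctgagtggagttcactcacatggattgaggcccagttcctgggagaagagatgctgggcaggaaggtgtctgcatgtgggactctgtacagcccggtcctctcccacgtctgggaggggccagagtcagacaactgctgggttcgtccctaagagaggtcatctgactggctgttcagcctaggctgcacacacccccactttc
The ANXA2 stretch held 3 overlapping GC boxes, 1 AP-1 site and 1 TATA box, and the ANXA4 stretch held 5 GC boxes. The printed ANXA4 stretch lies upstream of the gene span given below. The other ANXA4 window, chr2:69741884-69742133, lies within that span and held 3 GC boxes at a GC content of 71.6%. S100A3 had 1 GC box, 1 AP-1 site and 1 CCAAT box, S100A10 had 1 GC box, and ANXA9 had none of these letters. GC content was 78.0% for ANXA2, 77.2% for ANXA4 and 71.2% for S100A10, against 58.4% for S100A3 and 58.0% for ANXA9, where the median of all 35116 windows in the table was 58.0%. The GC box was found in 42.6% of those windows, the AP-1 site in 6.57%, the TATA box in 10.7% and the CCAAT box in 32.0%. RefSeq windows, 41 in all and up to 3 per member, were matched for 30 of the 34 members. Of these windows 15 held a GC box, 5 an AP-1 site, 15 a TATA box and 10 a CCAAT box. Counted by member, 14 held a GC box, 5 an AP-1 site, 14 a TATA box and 10 a CCAAT box in at least 1 window. A match of letters is a description of the sequence and was not tested for binding.

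Transcripts of a few annexins dominated their family (the plot of TPM by library). ANXA2 (chr15:60347134-60402883, minus strand, hg38) was the highest annexin, at 1969 and 2184 TPM in the control and 2038 and 1950 TPM in the oeDAZL libraries, and it ranked between 35 and 46 among all genes of a library. ANXA1 (chr9:73151865-73170393, plus strand), a regulator of inflammation that is a ligand of formyl peptide receptors, followed at 1010 and 1187 TPM in the control and 1274 and 1202 TPM in the oeDAZL libraries. No library of ANXA1 reached any library of ANXA2, and no library of the annexins below reached any of ANXA1. ANXA5, the phosphatidylserine-binding annexin used to stain apoptotic cells, was at 502 and 587 TPM in the control and 583 and 577 TPM in the oeDAZL libraries. ANXA3 was at 541 and 530 TPM in the control and 545 and 547 TPM in the oeDAZL libraries. The values of ANXA5 and ANXA3 overlapped, so their order was not resolved. ANXA6, an annexin of endosomes and the plasma membrane, was at 146 and 172 TPM in the control and 180 and 172 TPM in the oeDAZL libraries.

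ANXA7, ANXA11 and ANXA4 formed a level between 54.6 and 75.1 TPM, in which the libraries of ANXA4 overlapped those of the other two. ANXA9, ANXA8 and ANXA8L1 lay between 1.76 and 11.3 TPM. ANXA10 and ANXA13 were listed at 0 in all 4 libraries. The 13 annexins summed to 4384 and 4881 TPM in the control and 4845 and 4663 TPM in the oeDAZL libraries, of which the 3 highest members took 79.4% to 81.1%. Annexin transcripts were thus 0.439% to 0.489% of all TPM, and the groups overlapped.

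The S100 genes were more uneven. S100A11 (chr1:152032506-152047907, minus strand) was highest, at 1315 and 1463 TPM in the control and 1513 and 1491 TPM in the oeDAZL libraries. S100A10 (chr1:151982915-151993859, minus strand) was at 737 and 864 TPM in the control and 860 and 886 TPM in the oeDAZL libraries. S100A16 was at 121 and 158 TPM in the control and 154 and 148 TPM in the oeDAZL libraries. These 3 genes took 94.0% to 94.3% of the family's TPM, and their libraries did not overlap each other, so S100A11, S100A10 and S100A16 kept this order in every library. S100A13, which takes part in the release of a fibroblast growth factor, was at 70.8 and 82.4 TPM in the control and 86.1 and 90.1 TPM in the oeDAZL libraries. S100A14 was at 28.9 and 22.3 TPM in the control and 28.3 and 26.5 TPM in the oeDAZL libraries. The S100 genes summed to 2303 and 2640 TPM in the control and 2687 and 2683 TPM in the oeDAZL libraries. Both oeDAZL sums were above both control sums, and the control sums differed more from each other than the group means, 2472 and 2685 TPM, did.

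**Figure D1:**
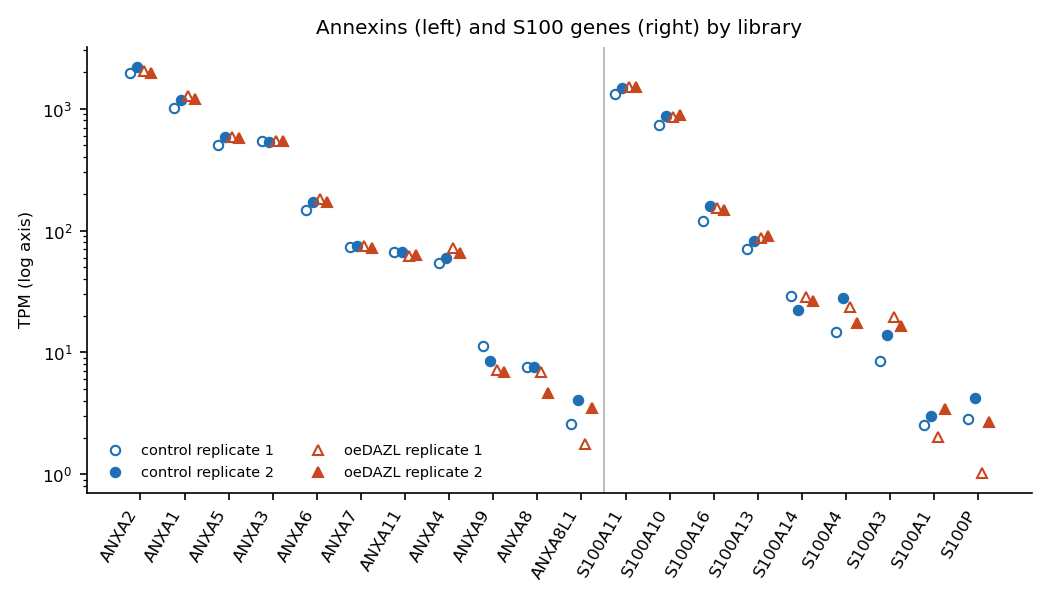
TPM (log axis) of the 20 members with a mean of at least 1 TPM, annexins left and S100 genes right, with circles for the control and triangles for the oeDAZL libraries. Levels ran from 1.03 TPM for S100P to 2184 TPM for ANXA2, and for ANXA2, ANXA3 and S100A11 the 4 points nearly coincide on this axis.

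Along chromosome 1, 17 of the 21 S100 genes were found, of which 6 were listed at 0 in every library (the plot of S100 genes in order of position). These were S100A7, S100A7A, S100A8, S100A9, S100A12 and the processed pseudogene S100A15A, which follow each other in the order of the S100 genes, between the abundant S100A10 and S100A11 on the centromere side and S100A16, S100A14 and S100A13 at the far side. S100Z, on chromosome 5, was also listed at 0. S100A2, S100A5, S100A6, S100B and S100G had a mean above 0 and under 1 TPM. S100A6, a protein of proliferating cells and fibroblasts, was at 1.09 TPM in control replicate 1 and listed at 0 in the other libraries. S100A2 was at 0.306 and 0.818 TPM in control against 0 and 1.52 TPM in oeDAZL, so the oeDAZL libraries lay on both sides of the control. S100B, a marker of glia, was listed above 0 in control replicate 2 alone, at 0.512 TPM, S100A5 in control replicate 1 alone, at 0.481 TPM, and S100G in oeDAZL replicate 1 alone, at 0.207 TPM. These values were taken to give no direction. S100A6, S100A2, S100B, S100A5, S100G and S100Z are named because of their levels, a choice made after the values were seen.

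**Figure D2:**
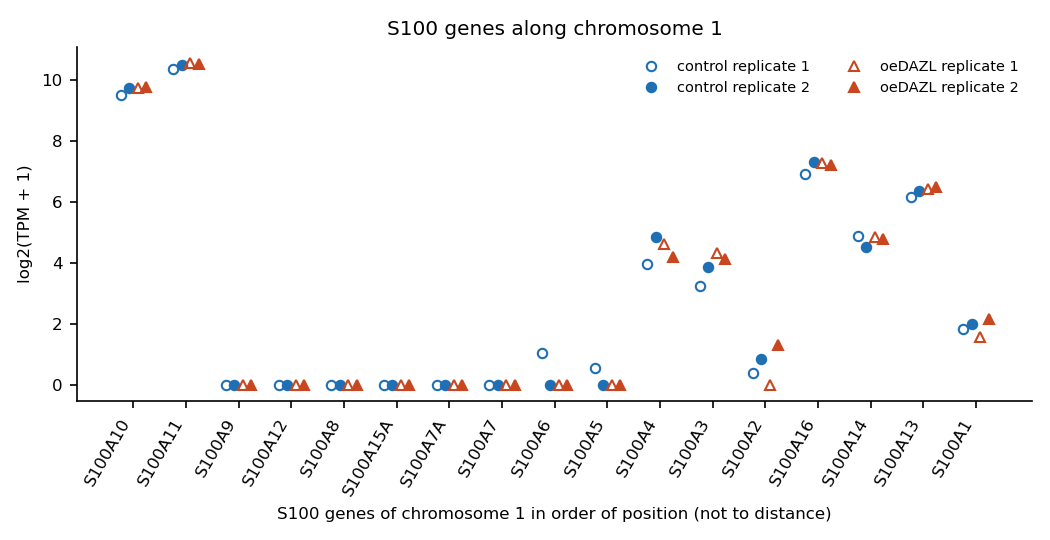
Level on the log2(TPM + 1) scale of the 17 S100 genes of chromosome 1 in order of position, with equal spacing that is not to distance, for the 2 control (circles) and 2 oeDAZL (triangles) libraries. The 6 genes from S100A9 to S100A7 sit at 0 in all libraries, between the highest members at the left and S100A4 to S100A1 at the right.

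Whether DAZL overexpression changed these genes was then asked by comparing oeDAZL with control for the 20 members, 11 annexins and 9 S100 genes, with a mean of at least 1 TPM, in a limma fit over all 16687 such genes on the log2(TPM + 1) scale. On this scale the change of low genes is understated. Under the study's thresholds, a 2-fold change and a P of at most 0.05 before adjustment, no member was called in either direction, where 0.689% of all tested genes did. No member had a Benjamini-Hochberg adjusted p under 0.05 in limma, where 0.0599% of all tested genes did. At an unadjusted P of at most 0.05 alone, ANXA4 and S100A3 were higher, which is 2 of 20 against 5.02% of all tested genes, and ANXA9 was lower, which is 1 of 20 against 15.2%. The lowest adjusted p of any member was 0.171, that of ANXA4. Counts of this size are near the background, and nothing is read from them about the families. The oeDAZL pair of libraries lay above the control pair for 6 members, against 16.0% of all tested genes, and below it for 4, against 38.4%. The median log2 fold change was −0.01 over the 11 annexins and 0.11 over the 9 S100 genes, beside −0.08 over all tested genes. Of the 20 members 11 were higher in oeDAZL, against 15 with median-of-ratios scaling and 14 with quantile normalization, while 65.3%, 50.5% and 49.0% of all tested genes were lower in these 3 fits. Over all tested genes the same choice moved the share of higher genes among those at P of at most 0.05 from 24.9% (838 of 3368) to 52.1% (1660 of 3188) with median-of-ratios scaling and 47.9% (1399 of 2918) with quantile normalization, so directions of small changes depend on the scaling.

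**Figure D3:**
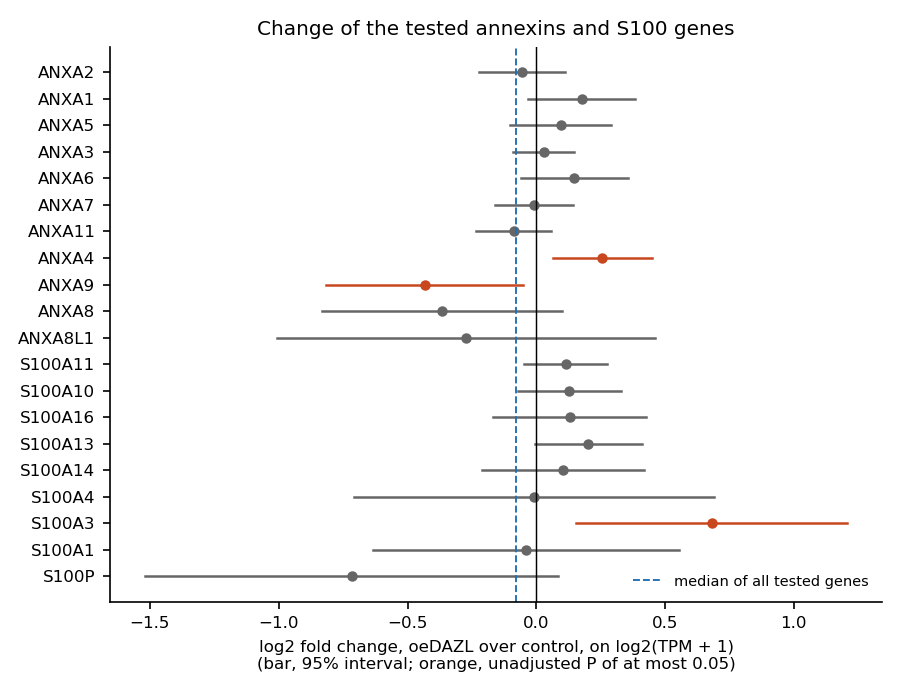
Log2 fold change, oeDAZL over control, of the 20 tested members, with points for estimates and bars for 95% intervals from limma, and orange for unadjusted P of at most 0.05. ANXA4 (0.26) and S100A3 (0.68) lie right of 0 and ANXA9 (−0.43) left of it, and every other interval includes 0. The dashed line is the median of all tested genes, −0.08.

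ANXA4 (chr2:69644425-69827112, plus strand), an annexin of epithelia that self-associates on membranes, was at 54.6 and 59.2 TPM in the control and 71.5 and 64.8 TPM in the oeDAZL libraries. Both oeDAZL libraries were above both control libraries. The means were 56.9 ± 3.25 and 68.2 ± 4.73 TPM (SD, n = 2), with a log2 fold change of 0.26 (95% interval 0.06 to 0.45, unadjusted P = 0.0171 and adjusted p = 0.171 in limma). Its estimate was between 0.19 and 0.34 over the alternatives tried. Without control replicate 1 its unadjusted P in limma was 0.0641, and without oeDAZL replicate 1 it was 0.139.

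S100A3 (chr1:153547329-153549258, minus strand), known from the cuticle of hair, was at 8.44 and 13.8 TPM in the control and 19.4 and 16.6 TPM in the oeDAZL libraries. Both oeDAZL libraries were above both control libraries, although the control libraries differed from each other by 0.65 on the log2 scale. The means were 11.1 ± 3.77 and 18.0 ± 1.96 TPM (SD, n = 2), with a log2 fold change of 0.68 (95% interval 0.16 to 1.21, unadjusted P = 0.0191 and adjusted p = 0.177 in limma). Leaving out control replicate 1 gave 0.36, and leaving out control replicate 2 gave a log2 fold change above 1. Without oeDAZL replicate 1 the estimate was 0.58 and its unadjusted P in limma was 0.066, and with no filter on TPM it was 0.0566. The S100A3 gene lies wholly within the span of S100A4 on the same strand, with 0 exonic bases shared. S100A4, a partner of non-muscle myosin named here for this overlap after its values were seen, was at 14.8 and 27.9 TPM in the control and 23.5 and 17.4 TPM in the oeDAZL libraries. Its oeDAZL libraries lay between its control libraries, with a log2 fold change of −0.01 (95% interval −0.71 to 0.69).

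ANXA9 (chr1:150982249-150995634, plus strand), an annexin whose repeats lack the usual calcium-binding residues, was at 11.3 and 8.57 TPM in the control and 7.22 and 6.87 TPM in the oeDAZL libraries. Both oeDAZL libraries were below both control libraries, and control replicate 1 was the highest. The means were 9.94 ± 1.95 and 7.04 ± 0.244 TPM (SD, n = 2), with a log2 fold change of −0.43 (95% interval −0.82 to −0.05, unadjusted P = 0.0322 and adjusted p = 0.210 in limma). With median-of-ratios scaling its unadjusted P in limma was 0.0526, and without control replicate 1 the log2 fold change was −0.25 (unadjusted P = 0.132 in limma). Without oeDAZL replicate 1 its unadjusted P in limma was 0.077, and without oeDAZL replicate 2 it was 0.115.

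The abundant members gave narrow intervals. ANXA2 had means of 2076 ± 152 TPM in the control and 1994 ± 62.3 TPM in the oeDAZL libraries (SD, n = 2), and its groups overlapped. Its log2 fold change was −0.06 (95% interval −0.22 to 0.11), and 0.03 with median-of-ratios scaling. Without control replicate 1 it was −0.13, with an unadjusted P of 0.0331 in limma. S100A10, its partner, had means of 801 ± 89.8 and 873 ± 18.8 TPM (SD, n = 2) and a log2 fold change of 0.13 (95% interval −0.07 to 0.33), and its groups overlapped. S100A11 had means of 1389 ± 105 and 1502 ± 16.1 TPM (SD, n = 2) and a log2 fold change of 0.11 (95% interval −0.05 to 0.28), with both oeDAZL libraries above both control libraries. The 95% intervals of these 3 genes do not reach a 2-fold change in either direction.

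The ratio of ANXA2 to S100A10 in TPM was 2.67 and 2.53 in the control and 2.37 and 2.20 in the oeDAZL libraries. Both oeDAZL ratios were below both control ratios, and the exact two-sided permutation test gave p = 0.333, the smallest that 2 libraries against 2 allow. The ratio of ANXA1 to its partner S100A11 was 0.768 and 0.812 in the control and 0.842 and 0.806 in the oeDAZL libraries, and the groups overlapped. ANXA1 had a log2 fold change of 0.18 (95% interval −0.03 to 0.39), ANXA6 of 0.15 (−0.06 to 0.36), ANXA5 of 0.10 (−0.10 to 0.29) and ANXA3 of 0.03 (−0.09 to 0.15). S100A13 had a log2 fold change of 0.20 (−0.01 to 0.41), S100A16 of 0.13 (−0.17 to 0.43) and S100A14 of 0.10 (−0.21 to 0.42). None of these passed the unadjusted threshold. ANXA1, S100A11 and S100A13 passed it with median-of-ratios scaling, and S100A13 (unadjusted P = 0.0547 in limma) also with quantile normalization and without mitochondrial genes. With control replicate 2 left out, the log2 fold change was 0.29 for ANXA1, 0.21 for ANXA5 and 0.32 for S100A16. With control replicate 1 left out, it was 0.06 for ANXA1, −0.02 for ANXA5 and −0.06 for S100A16.

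For many members the control libraries differed from each other by more than the groups did (the plot of the control gap). Control replicate 1 was the lowest of the 4 libraries for 10 of the 20 tested members, against 21.3% of all tested genes. Control replicate 2 was above control replicate 1 for 15 of the 20 (75.0%), by a median of 0.19 on the log2(TPM + 1) scale, against 41.6% and a median of −0.04 over all tested genes. For 14 of the 20 members (70.0%) the gap between the control libraries was larger than the change between groups, as it was for 48.0% of all tested genes. Without control replicate 1 the median log2 fold change of the S100 genes was 0.01, and without control replicate 2 it was 0.24. Over all tested genes the median was −0.06 without control replicate 1 and −0.10 without control replicate 2. Of the 20 members 9 had a higher estimate in oeDAZL without control replicate 1, where 62.4% of all tested genes were lower. Without control replicate 2 it was 14 of the 20, where 65.2% of all tested genes were lower.

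**Figure D4:**
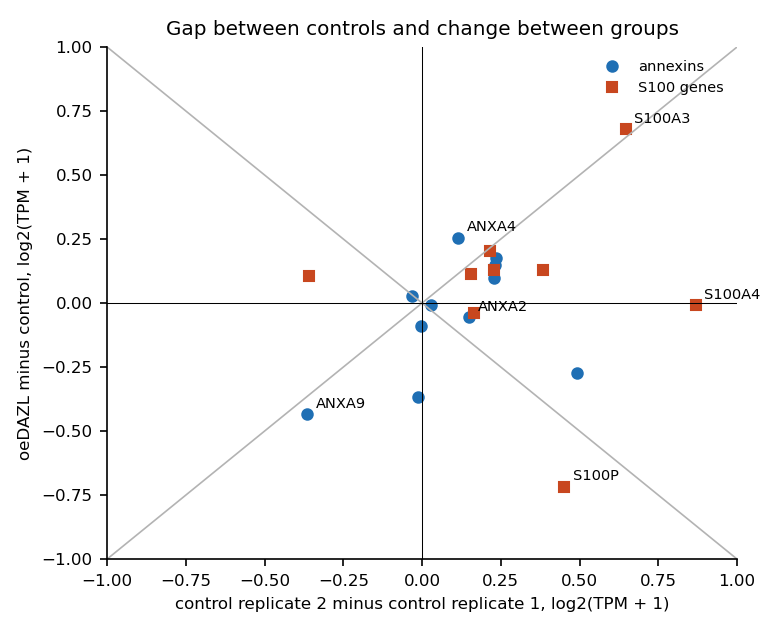
Change between groups (oeDAZL minus control) against the gap between control libraries (control replicate 2 minus control replicate 1), both on the log2(TPM + 1) scale, for the 11 annexins (circles) and 9 S100 genes (squares). Points between the diagonals at left and right, 14 of the 20 members, have a larger gap between the control libraries than change between groups, and S100A3 and ANXA9 lie just outside.

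Several members share sequence with other genes. The first 90 bases of the longest coding exon of ANXA2 (chr15:60349108-60349197, minus strand) and of ANXA8 (chr10:47471295-47471384, minus strand) are shown because the copies hold the same letters.
ANXA2 and its processed copy ANXA2P2 (chr9:33625111-33625200, plus strand): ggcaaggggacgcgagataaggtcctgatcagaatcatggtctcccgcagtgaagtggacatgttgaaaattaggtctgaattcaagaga
ANXA8 and ANXA8L1 (chr10:46388393-46388482, plus strand): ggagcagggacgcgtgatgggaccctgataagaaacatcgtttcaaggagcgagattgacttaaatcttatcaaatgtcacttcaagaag
Over these 90 bases each pair had 0 differences, so there are no capitals. Of the 50-base windows along the ANXA2 transcript 38.2% occurred in ANXA2P2, and of those along the ANXA8 transcript 79.4% occurred in ANXA8L1. The study's methods kept uniquely mapped reads, and how reads were divided between copies was not tested, so the values of these genes are uncertain. ANXA2P2 was at 149 and 178 TPM in the control and 168 and 172 TPM in the oeDAZL libraries, ANXA2P1 was at 0.475 to 0.886 TPM and ANXA2P3 was listed at 0. ANXA8 was at 7.64 and 7.57 TPM in the control and 6.95 and 4.62 TPM in the oeDAZL libraries, with both oeDAZL libraries below both control libraries and a log2 fold change of −0.37 (95% interval −0.83 to 0.10). Without oeDAZL replicate 1 the log2 fold change of ANXA8 was −0.62, with an unadjusted P of 0.0233 in limma, and without oeDAZL replicate 2 it was −0.11. ANXA8L1 was at 2.59 and 4.06 TPM in the control and 1.76 and 3.52 TPM in the oeDAZL libraries, which overlapped. The log2 fold change of ANXA8L1 was −0.27 (standard error 0.30). S100A13 and S100A1 share 235 exonic bases on opposite strands, and without a stated strand their reads cannot be told apart there. On the same strand, S100A13 shares 536 exonic bases (24.2%) with a long non-coding RNA gene. ANXA8L1 shares 342 (12.0%) with another on its own strand. S100A1 was between 2.01 and 3.46 TPM. S100P, a low member described here because of its estimate, a choice made after the values were seen, was at 2.84 and 4.25 TPM in the control and 1.03 and 2.67 TPM in the oeDAZL libraries. Both oeDAZL libraries were below both control libraries, with a log2 fold change of −0.72 (95% interval −1.52 to 0.09). Without oeDAZL replicate 2 it was −1.14, with an unadjusted P of 0.00886 in limma, and without oeDAZL replicate 1 it was −0.29. Its unadjusted P in limma was 0.0716 with all libraries.

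Among 32 partners of annexins and S100 proteins, 25 had a mean of at least 1 TPM, of which 3 were higher and 2 lower at an unadjusted P of at most 0.05 in limma, against 5.02% and 15.2% of all tested genes, and none had an adjusted p under 0.05 (lowest 0.122). Their median log2 fold change was 0.04. The plasminogen receptor PLGRKT was at 25.8 and 29.0 TPM in the control and 34.3 and 30.8 TPM in the oeDAZL libraries (log2 fold change 0.24), and BSG, a cell surface receptor bound by S100A9, was at 808 and 693 TPM against 869 and 853 TPM (0.20). CACYBP, a ubiquitin ligase adaptor that binds S100A6, was at 58.9 and 68.0 TPM in the control and 72.6 and 75.0 TPM in the oeDAZL libraries (0.22). For these 3 genes both oeDAZL libraries were above both control libraries. PPFIBP1, a liprin bound by S100A4, was lower, at 136 and 129 TPM in the control and 114 and 109 TPM in the oeDAZL libraries (−0.24). S100PBP, a binding protein of S100P, was at 36.1 and 32.5 TPM in the control and 28.3 and 28.2 TPM in the oeDAZL libraries (−0.27). Of the proteins that bind the ANXA2 and S100A10 complex, AHNAK was at 1006 and 1002 TPM against 928 and 923 TPM (log2 fold change −0.12, unadjusted P = 0.0519 in limma). PLAT, tissue plasminogen activator, was at 25.8 and 40.5 TPM in the control and 45.2 and 43.7 TPM in the oeDAZL libraries (0.45, unadjusted P = 0.0587 in limma). FPR1 and FPR2, the receptors of ANXA1, were listed at 0 in every library. MYH9, the heavy chain bound by S100A4, was at 920 to 1007 TPM, with a log2 fold change of 0.07. AHNAK, PLAT and MYH9 are only some of the listed partners that did not pass the unadjusted threshold. Others were CTSB (0.08), DLC1 (0.06), CAV1 (0.04), EZR (−0.05) and PLA2G4A (−0.38).

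The estimates of other calcium-binding EF-hand proteins lay in both directions. CALM2 was at 614 and 727 TPM in the control and 1038 and 905 TPM in the oeDAZL libraries, with a log2 fold change of 0.54 (unadjusted P = 0.00173, adjusted p = 0.0949 in limma). CALM3, which encodes the same calmodulin protein, was at 502 and 509 TPM in the control and 414 and 455 TPM in the oeDAZL libraries (−0.22). All 7 penta-EF-hand proteins were tested. At an unadjusted P of at most 0.05 in limma, CAPN1 (−0.18), CAPN2 (−0.13) and SRI (−0.19) were lower and PDCD6 (0.18) was higher. Of all tested genes 15.2% were lower and 5.02% higher at that threshold. No calmodulin or penta-EF-hand gene tested had an adjusted p under 0.05. CAPN1 and CAPN2 are the catalytic subunits of calpains, SRI encodes sorcin, a regulator of calcium release, and PDCD6 binds ANXA7 and ANXA11. The 7 genes of S100-fused proteins, such as filaggrin (FLG), summed to at most 0.134 TPM in a library, and 3 of them were listed at 0 throughout.

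**Figure D5:**
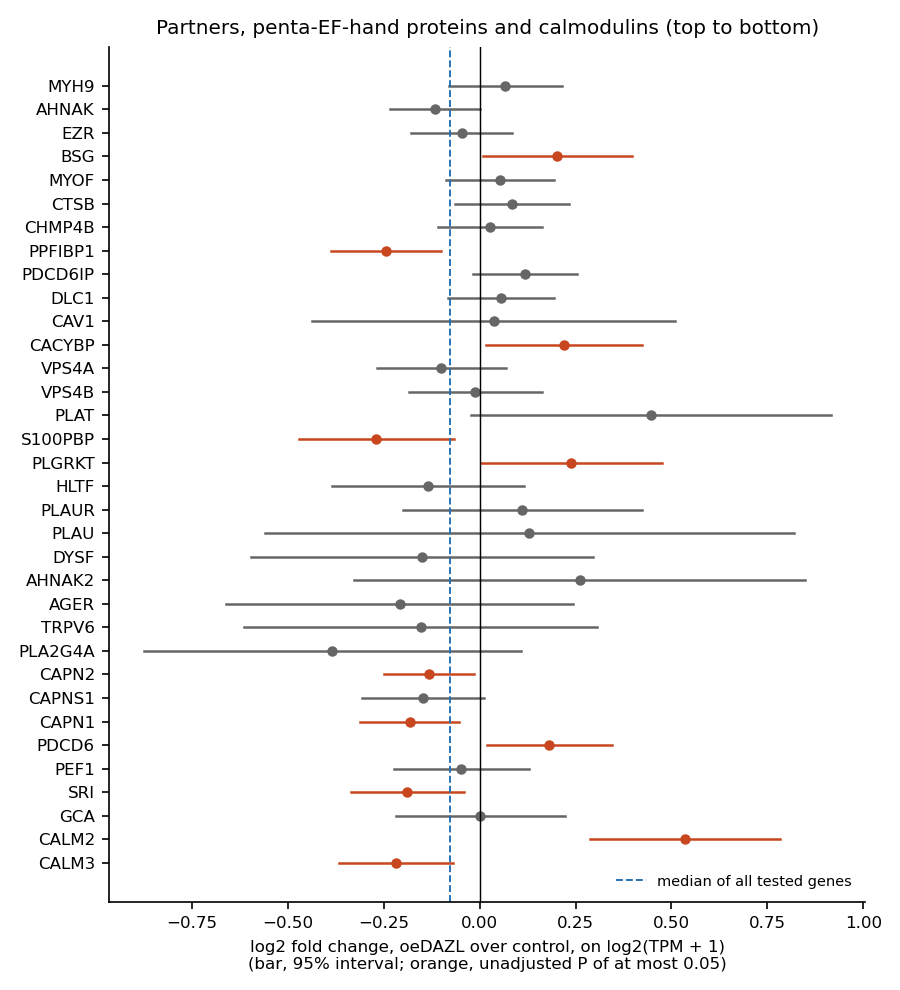
Log2 fold change, oeDAZL over control, with 95% intervals from limma, for the tested partners (MYH9 to PLA2G4A), penta-EF-hand proteins (CAPN2 to GCA) and the calmodulin genes CALM2 and CALM3, each in order of mean TPM, with orange for unadjusted P of at most 0.05. CALM2 (0.54) has the largest estimate, and the bar of PLAT (0.45) reaches just below 0.

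Markers of the cell types in which these families are best known were measured in the same libraries. In bulk samples fewer cells of a type and less RNA per cell cannot be told apart. Of 6 myeloid markers, PTPRC, CD14, ITGAM, LYZ and FCGR3A were all at or under 0.106 TPM, beside S100A8, S100A9 and S100A12 listed at 0, whereas CSF1R was at 12.5 and 14.0 TPM in the control and 19.3 and 19.5 TPM in the oeDAZL libraries. Of 9 surface ectoderm and epidermis markers, KRT5, KRT14, KRT1, DSG3 and IVL were at or under 0.758 TPM, and the list summed to 68.4 and 85.8 TPM in the control and 89.9 and 86.4 TPM in the oeDAZL libraries, with KRT10 and SFN the highest. Of 8 primordial germ cell markers, DDX4 was listed at 0, NANOS3 was between 0.732 and 1.66 TPM and SOX17 between 2.52 and 3.35 TPM, while TFAP2C was between 44.3 and 53.9 TPM. KIT was between 6.23 and 7.70 TPM, PRDM1 between 1.47 and 2.32 TPM, DPPA3 between 0.716 and 2.17 TPM and DND1 between 0.450 and 0.952 TPM. All markers of this list other than TFAP2C were therefore at or under 7.70 TPM. Of 10 amnion and trophoblast markers, 9 were tested, of which 4 had a higher and 5 a lower estimate. At an unadjusted P of at most 0.05 in limma 2 were higher and 3 lower, against 5.02% and 15.2% of all tested genes. The higher were HAND1 (log2 fold change 0.32) and IGFBP3 (0.22), and the lower were ISL1 (−0.49), VTCN1 (−0.38) and CGA (−1.18). The list summed to 5300 and 5257 TPM in the control and 5791 and 5672 TPM in the oeDAZL libraries, a sum in which single abundant genes weigh most. Of 10 mesoderm and mesenchyme markers, 6 were lower and 0 higher at that threshold, against the same background, and the list summed to 3914 and 4043 TPM in the control and 3384 and 3353 TPM in the oeDAZL libraries. The mesenchymal marker VIM was at 1188 and 1460 TPM in the control and 1539 and 1469 TPM in the oeDAZL libraries, lowest in control replicate 1 as ANXA1, ANXA5, ANXA6, S100A10 and S100A11 were. VIM was the 1 marker of the 10 that was lowest in that library, and 8 of the 10 had their oeDAZL libraries below the control libraries. The part of these cell types in the levels of the annexins and S100 genes was not tested.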

How the data were processed

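RNA-seq of 2 control and 2 oeDAZL libraries was used, with the groups taken from the sample titles. The authors deposited 1 table of TPM per gene. Per the study's methods, reads were trimmed, mapped to hg38 with HISAT2, kept where unique and quantified with StringTie, and the submitters' notes list HISAT2 2.1.0 and StringTie 2.1.4. The annotation release is not given in the sources used here. Of 65003 entries, 45 pseudoautosomal copies and 18 repeats were left out. Values were transformed to log2(TPM + 1), and limma 3.58.1 in R 4.3.3 (lmFit, eBayes with trend) was fitted to the 16687 genes whose mean reached 1 TPM, without a block, since the replicate numbers are not stated to pair libraries. A gene was called at a 2-fold change and P of at most 0.05 before adjustment. P-values were adjusted over all tested genes by Benjamini-Hochberg. The fit was tested on simulated data. No count test was run, since the deposited values are not read counts, and no count interval was computed because depth is unknown.

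The rule for members uses gene symbols only, but it and the gene lists were chosen with earlier results of these data known, and some listed genes are not reported here. Values in every library are given for ANXA2, S100A10 and S100A11, the 5 highest members of each family, members with P of at most 0.05 or a 2-fold change, and the near-identical ANXA8 and ANXA8L1. Listed partners are named where P was at most 0.05. Of the listed partners with a larger P, only some are named. Coordinates are from GENCODE 44 on the same build, in which all 34 members were found. Promoter windows are from RefSeq, and exon and transcript sequences from GENCODE 44 and its genome. The alternatives were a pseudocount of 0.1, no filter on TPM, a mean TPM of at least 5, scaling by median of ratios, quantile normalization, rescaling without mitochondrial genes, a replicate block, limma without trend, an adjusted p under 0.05, and each library left out, where the lone library of a group is assumed to vary like the other group.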

Additional observations from a re-analysis of the deposited data

How the results depend on the processing

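The counts of members at an unadjusted P of at most 0.05 were small and moved with the processing (limma throughout). The background moved too. Over all tested genes, 838 of the 3368 at that threshold were higher in the main fit. With median-of-ratios scaling it was 1660 of 3188, with quantile normalization 1399 of 2918, and without mitochondrial genes 932 of 3242. With no filter on TPM it was 1084 of 4089, and without trend 565 of 2883. Counts with a library left out are given without that background, and nothing is read from them about the families. Annexins higher in oeDAZL numbered 1, against 2 with median-of-ratios scaling, 0 without trend and 0 to 4 with a library left out. Annexins lower numbered 1, against 0 with no filter on TPM, 0 under median-of-ratios scaling, 0 under quantile normalization and 0 to 1 with a library left out. S100 genes higher numbered 1, against 0 with no filter, 3 under median-of-ratios scaling, 2 under quantile normalization, 2 without mitochondrial genes, 0 without trend and 0 to 5 with a library left out. S100 genes lower numbered 0, and 0 to 1 with a library left out. An adjusted p under 0.05 left 0 in each direction in both families. Members called at 2-fold numbered 0 in each direction under the other alternatives and 0 to 1 in each with a library left out, S100A3 higher without control replicate 2 and S100P lower without oeDAZL replicate 2. The median log2 fold change of the annexins was −0.01, against 0.0735 with median-of-ratios scaling and −0.02 to 0.03 with a library left out. That of the S100 genes was 0.11, against 0.1987 with median-of-ratios scaling and 0.0736 with no filter on TPM. With a library left out it was 0.0138 to 0.2428. The lowest adjusted p of a member was 0.171. Among fits that kept all 4 libraries it fell under 0.05 only in the crossed fit given next (S100A3, 0.0250). In that fit 1089 of all 16687 tested genes had an adjusted p under 0.05, against 10 in the main fit.

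The replicate numbers pair no libraries by their labels, and the deviations of same-numbered libraries correlated at −0.10 across genes. With the replicate block the annexins kept 1 higher and 1 lower, and the S100 genes had 2 higher (S100A3 and S100A13) and 1 lower (S100P, unadjusted P = 0.0205 in limma). Crossing the numbers in the replicate block was an alternative added after the values were seen. It gave 3 annexins and 2 S100 genes higher, and 1 annexin and 1 S100 gene lower. Over all tested genes, 670 of the 2772 at that threshold were higher with the block, and 1060 of 4017 with the numbers crossed.

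Over all tested genes the number with an adjusted p under 0.05 was 10, and between 1 and 1089 over the alternatives, and the number called at 2-fold was 115, and between 29 and 322. With 2 libraries per group and no depth in TPM, changes of low genes such as S100A1, ANXA8L1 and S100P were not resolved.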
